A study of Mus musculus with 28 samples.

Results

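The 8 genes described here, Acan, Sox9, Sox5, Sox6, Comp, Matn3, Hapln1 and Tnn, are genes of the cartilage programme and its matrix, out of 37620 genes in the count table. They were picked by name, for their link to cartilage and for differences between K36M and WT fibroblasts that earlier work on these same libraries had shown. The K36M to WT difference in the fibroblasts is therefore what chose them, and it is described below without a test. All 8 were found by symbol and all 8 had enough counts to be tested.

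The study followed mouse embryonic fibroblasts (MEFs) through reprogramming to induced pluripotent stem cells (iPSCs) by poly(A) RNA sequencing, with 2 libraries in each of 14 groups. The genotypes are WT and K36M, and the names of the WT libraries carry H3_3 where those of the other genotype carry K36M. The labels do not spell H3_3 out. K36M is the histone H3 lysine-to-methionine change that lowers methylation at that residue. Per genotype there were MEFs at d0, reprogramming intermediates (d2, d4, d6, d8), passaged iPSCs and a separate set of MEFs without OKSM, the 4 reprogramming factors Oct4, Klf4, Sox2 and c-Myc. Fibroblasts were grown in DMEM with serum, reprogramming took place in a medium named AGi, and iPSCs were passaged in one named S/L. How K36M was delivered to the cells, the promoter behind it, the strain and age of the embryos and whether the cells of a group were pooled are not given in the labels. The labels do not say either whether the 2 libraries of a group came from separate cultures, so the p-values reflect only how much 2 libraries of a group differed, and that spread may be technical.

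Cartilage cells surround themselves with a matrix of collagen fibrils and a gel of aggrecan bound to hyaluronan. SOX9 is the transcription factor that commits cells to this fate, and SOX5 and SOX6, which lack an activation domain of their own, bind beside it and strengthen its action on genes such as Col2a1 and Acan. Acan encodes aggrecan, the large proteoglycan of the gel, and Hapln1 the link protein that locks aggrecan onto hyaluronan. Comp encodes cartilage oligomeric matrix protein and Matn3 encodes matrilin 3, and both connect collagen fibrils with other matrix proteins. Tnn encodes tenascin-W, a matrix glycoprotein of developing bone and its precursor tissue. MEF cultures are a mixture of mesenchymal cells of the embryo, and some of these have skeletal potential.

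In the mm9 assembly with GENCODE vM1 annotation Acan lies at chr7:86198369-86259985, Comp at chr8:72897447-72905964, Matn3 at chr12:8954735-8978834, Hapln1 at chr13:89680241-89751437 and Sox9 at chr11:112643538-112649074 on the plus strand, and Sox5 at chr6:143776945-144730497, Sox6 at chr7:122614858-123182258 and Tnn at chr1:162015165-162083711 on the minus strand. Promoters were taken from RefSeq (GRCm38.p6), as the 250 bases before and 50 after a start site, and each was located in mm9 by an exact match that occurred once. The table held promoters for 6 of the 8 genes. Those of the 4 matrix genes with an entry are printed. Acan and Matn3 were high in iPSCs, where Hapln1 and Tnn were low. Acan, like Hapln1 and Tnn, was highest in K36M cells at d0 or d2, so the levels give no clean split of the 4 genes. A link between CG content and level was not tested. Capitals mark the dinucleotide CG, where mammalian DNA is methylated. The Acan promoter is chr7:86197862-86198161 (plus strand), that of Matn3 chr12:8954485-8954784 (plus), that of Hapln1 chr13:89679991-89680290 (plus) and that of Tnn chr1:162083657-162083956 (minus), all on mm9 and all 5′ to 3′.
Acan: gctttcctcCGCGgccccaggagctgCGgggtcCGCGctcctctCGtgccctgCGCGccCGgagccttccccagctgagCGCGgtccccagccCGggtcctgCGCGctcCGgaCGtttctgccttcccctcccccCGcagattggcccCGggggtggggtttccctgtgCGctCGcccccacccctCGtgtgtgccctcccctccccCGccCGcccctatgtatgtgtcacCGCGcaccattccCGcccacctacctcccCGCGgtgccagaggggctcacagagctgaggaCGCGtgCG
Matn3: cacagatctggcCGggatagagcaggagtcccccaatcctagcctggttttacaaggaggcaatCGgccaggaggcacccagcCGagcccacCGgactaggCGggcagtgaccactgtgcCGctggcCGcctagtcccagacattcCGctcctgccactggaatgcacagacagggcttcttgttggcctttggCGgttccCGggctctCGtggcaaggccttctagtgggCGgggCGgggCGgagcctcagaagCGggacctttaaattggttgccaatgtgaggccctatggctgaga
Hapln1: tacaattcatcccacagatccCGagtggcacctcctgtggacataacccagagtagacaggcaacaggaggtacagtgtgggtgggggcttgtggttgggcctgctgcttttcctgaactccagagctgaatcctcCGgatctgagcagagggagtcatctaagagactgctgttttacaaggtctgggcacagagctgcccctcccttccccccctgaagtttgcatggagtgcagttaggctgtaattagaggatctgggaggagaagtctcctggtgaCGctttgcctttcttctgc
Tnn: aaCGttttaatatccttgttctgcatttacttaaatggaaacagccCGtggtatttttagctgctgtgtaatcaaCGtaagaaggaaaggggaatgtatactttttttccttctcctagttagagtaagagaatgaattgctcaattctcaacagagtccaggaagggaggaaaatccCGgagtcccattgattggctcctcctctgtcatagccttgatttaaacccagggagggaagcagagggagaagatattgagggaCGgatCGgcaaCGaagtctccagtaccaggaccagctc
The Acan promoter holds 31 CG dinucleotides and the Matn3 promoter 15, against 3 for Hapln1 and 7 for Tnn. Among all 32851 promoters of the table the median is 7, with quartiles of 3 and 20. At least as many as in Acan were present in 10.6% of promoters, and at least as many as in Matn3 in 34.6%. SOX-type letters, searched on both strands in 3 spellings that can overlap, were in none of these 4 windows, while 33.2% of all promoters held at least 1. The letters ACAATG were in 12.6% of all promoters. Those of ACAAAG were in 18.7%, and the third spelling, AACAAT, was in 10.7%. The only Sox5 window, chr6:143895577-143895876 (minus, mm9), held 1 match. That window lies inside the gene, away from its 5′ end at 144730497, where the table held no Sox5 promoter. The 6 windows of Sox6, which has 6 annotated starts in the table, held between 0 and 5. A match is a string of letters and not a site of binding, and the windows leave out enhancers.

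Total counts per library ranged from 17507521 to 35622279, and levels are CPM, the usual counts normalized to library size, scaled here by TMM. In 13 of the 14 groups the 2 libraries correlated at 0.993 or more (Pearson, log2 CPM), and in K36M d6 at 0.980, so each K36M d6 result was also computed without either library. The 12 fibroblast markers summed to 34679 to 41893 CPM in WT d0 and 43350 to 43789 CPM in K36M d0, with Col1a1, Col1a2 and Fn1 highest, and were higher in each MEF library than in any library of another stage. Cartilage transcripts were nevertheless present in WT MEFs, where Col2a1, the main collagen of cartilage, stood at 135 and 178 CPM at d0. The 4 libraries without OKSM carry a library series number of their own in the labels (MHb9, and MHb8 for the rest), so what sets these MEFs apart from d0 MEFs cannot be told apart from that series. A count comparison in bulk RNA does not distinguish fewer cells of a type from less RNA per cell.

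**Figure D1:**
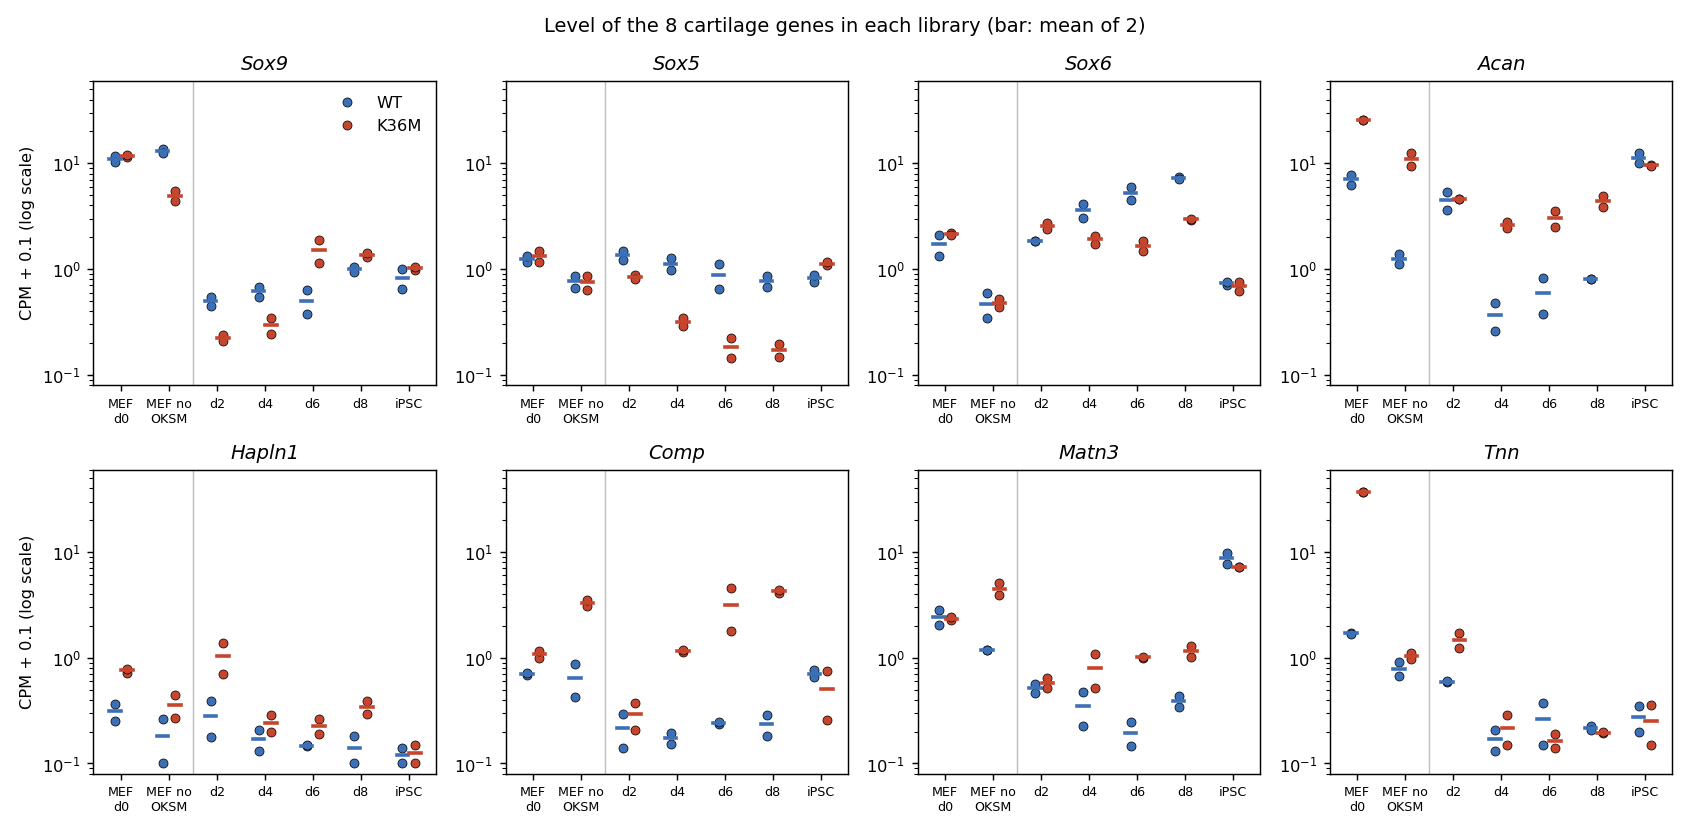
Level of each of the 8 genes in all 28 libraries, as CPM plus 0.1 on a log scale, by stage on the x axis, with WT in blue, K36M in red and a bar at the mean of the 2 libraries. Tnn in K36M d0 reaches 36.5 and 36.9 CPM, Acan and Matn3 are high again in the iPSCs of both genotypes, and Comp in K36M climbs to 4.03 and 4.31 CPM at d8 while WT stays low.

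In MEFs at d0 Tnn stood out. Its level was 1.61 and 1.58 CPM in WT and 36.5 and 36.9 CPM in K36M, a log2 fold change of 4.52 ± 0.23 (SE). Acan was at 6.17 and 7.70 CPM in WT and 25.8 and 25.3 CPM in K36M, a log2 fold change of 1.88 ± 0.20. The libraries of the 2 genotypes did not overlap for either gene. Hapln1 had 0.268 and 0.153 CPM in WT against 0.625 and 0.691 in K36M, and Comp had 0.590 and 0.612 CPM in WT against 0.893 and 1.06 in K36M, also without overlap but from few counts, 8 in WT and 29 in K36M for Hapln1 and 23 and 43 for Comp. The cartilage transcription factors were close to each other in the genotypes: Sox9 was at 11.5 and 10.1 CPM in WT and 11.4 and 11.9 CPM in K36M, Sox5 at 1.07 and 1.22 CPM in WT against 1.38 and 1.06 in K36M and Sox6 at 1.23 and 1.99 CPM in WT against 2.10 and 1.98 in K36M. Matn3 overlapped as well, at 1.93 and 2.70 CPM in WT against 2.19 and 2.30 in K36M. In all, both K36M libraries lay above both WT libraries for 4 of the 8 genes and below for 0, where 29.5% of all tested genes lay above and 30.6% below, and since the genes were chosen on this difference nothing is read from that count.

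The MEFs without OKSM gave another picture for the same genes. Acan was at 1.29 and 1.01 CPM in WT and 12.5 and 9.25 CPM in K36M, a log2 fold change of 3.22 ± 0.25, with a WT level below that of d0. Matn3, which did not separate at d0, was at 1.08 and 1.09 CPM in WT and 4.96 and 3.86 CPM in K36M, and Comp at 0.769 and 0.323 CPM in WT and 2.96 and 3.44 CPM in K36M. Transcripts of both matrix proteins were thus higher in each K36M library than in each WT library. Tnn was at 0.803 and 0.565 CPM in WT and 1.02 and 0.879 CPM in K36M, a log2 fold change of 0.45 ± 0.34 against the 4.52 ± 0.23 of d0. Sox9 ran the other way, at 13.7 and 12.5 CPM in WT and 4.28 and 5.39 CPM in K36M, a log2 fold change of -1.43 ± 0.17, so the K36M libraries without OKSM that were high in Acan were low in Sox9. Sox5 (0.559 and 0.767 CPM in WT against 0.762 and 0.535 in K36M) and Sox6 (0.489 and 0.242 CPM in WT against 0.339 and 0.421 in K36M) overlapped. Hapln1 had 4 counts in WT and 13 in K36M, a ratio of 3.49, with 0 counts in WT replicate 1. Its log2 fold change of 1.72 ± 0.92 was 0.67 without WT replicate 1 and 5.61 without WT replicate 2. For 5 genes (Acan, Comp, Matn3, Hapln1, Tnn) both K36M libraries lay above both WT libraries and for 1 (Sox9) below, with 33.5% and 33.2% of all tested genes doing so, and again the choice of genes used this contrast.

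Expression at d2 to d8 and in iPSCs was tested with edgeR's quasi-likelihood test, fitted to all 14 groups and 16932 genes and adjusted by Benjamini-Hochberg over all of them; a gene was taken to differ at an adjusted p below 0.05. These stages were not used to choose the genes as such, but their libraries descend from the same kind of culture and the difference at these stages was known when the genes were listed. Comparisons between days of 1 genotype share libraries with the comparisons between genotypes, and their values stand side by side below without a claim of overlap.

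Sox9 was lower in K36M early in reprogramming and higher at d6. At d2, far under its MEF level in both genotypes, it was at 0.449 and 0.347 CPM in WT and 0.138 and 0.108 CPM in K36M, with a log2 fold change of -1.63 ± 0.59 that missed the threshold (edgeR adjusted p = 0.0525). At d4 it was at 0.584 and 0.444 CPM in WT against 0.246 and 0.141 in K36M, and the difference passed the test (log2 fold change -1.35 ± 0.50, adjusted p = 0.0272 by edgeR). By d6 the order had turned: Sox9 was at 0.276 and 0.529 CPM in WT and 1.78 and 1.04 CPM in K36M, a log2 fold change of 1.79 ± 0.35 (adjusted p = 8.79e-05). At d8 the libraries did not overlap, at 0.954 and 0.833 CPM in WT against 1.20 and 1.31 in K36M, but the test did not pass (log2 fold change 0.50 ± 0.29, adjusted p = 0.139). The change of the K36M difference from d2 to d8 was itself 2.13 ± 0.65 (adjusted p = 0.0124). The d4 difference became -1.23 (adjusted p = 0.0887) without WT d4 replicate 1 and -1.004 (adjusted p = 0.209) without K36M d4 replicate 2, and the change from d2 to d8 became 1.94 (adjusted p = 0.0601) without WT d2 replicate 1 and 1.99 (adjusted p = 0.0556) without K36M d2 replicate 2. DESeq2 gave the d4 difference an adjusted p of 0.0514.

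Sox5 and Sox6, the partners of Sox9, were lower in K36M from d4 to d8. In WT Sox5 stood at 1.17 and 0.888 CPM at d4, 0.551 and 1.01 at d6 and 0.581 and 0.752 at d8, while in K36M it stood at 0.246 and 0.188, 0.0444 and 0.120 and 0.0959 and 0.0484. Each day separated the genotypes, with log2 fold changes of -2.19 ± 0.42 (adjusted p = 0.000117) at d4, -3.12 ± 0.52 (adjusted p = 1.51e-05) at d6 and -3.14 ± 0.55 (adjusted p = 3.81e-05) at d8 (edgeR), and the d6 value was -3.97 (adjusted p = 0.000114) without K36M d6 replicate 2. The K36M d8 value rests on 3 counts, against 42 in WT, a K36M to WT ratio of 0.106 (95% interval 0.0209 to 0.330). At d2 Sox5 was at 1.39 and 1.12 CPM in WT against 0.782 and 0.705 in K36M and did not pass (-0.74 ± 0.31, adjusted p = 0.107). Reads of Sox5 and of the antisense gene 4933415D12Rik, which overlaps it and has 0 counts in all libraries, could not be told apart without the strand setting.

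Sox6 rose along reprogramming in WT, from 1.76 and 1.74 CPM at d2 through 2.97 and 4.00 at d4 and 5.84 and 4.43 at d6 to 7.38 and 7.04 at d8, the highest level of this gene in any group. K36M cells stayed at 2.62 and 2.28, 1.97 and 1.64, 1.38 and 1.73 and 2.83 and 2.90 on the same days. WT at d8 exceeded WT at d2 by a log2 fold change of 2.04 ± 0.21 (adjusted p = 2.37e-08), whereas the same step in K36M was 0.22 ± 0.23 (adjusted p = 0.419) and did not pass (edgeR). Between the genotypes Sox6 differed by -0.97 ± 0.23 (adjusted p = 0.000957) at d4, -1.72 ± 0.22 (adjusted p = 4.28e-07) at d6 and -1.33 ± 0.20 (adjusted p = 4.36e-06) at d8, after 0.49 ± 0.24 (adjusted p = 0.166) at d2. The change of that difference from d2 to d8 was -1.82 ± 0.31 (adjusted p = 5.92e-05). In iPSCs Sox6 was low in both genotypes, at 0.601 and 0.662 CPM in WT against 0.519 and 0.652 in K36M.

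Acan was alike in the genotypes at d2 and higher in K36M from d4 to d8. The 4 libraries of d2 overlapped, at 5.23 and 3.55 CPM in WT and 4.51 and 4.45 CPM in K36M (log2 fold change 0.03 ± 0.23, adjusted p = 0.968). At d4 Acan stood at 0.159 and 0.381 CPM in WT and 2.71 and 2.35 CPM in K36M, at d6 at 0.276 and 0.722 CPM in WT against 3.47 and 2.41 in K36M and at d8 at 0.705 and 0.699 CPM in WT against 4.84 and 3.73 in K36M, so that each K36M library exceeded each WT library on the 3 days. The log2 fold changes were 3.07 ± 0.41 (adjusted p = 9.75e-07), 2.55 ± 0.37 (adjusted p = 1.85e-06) and 2.60 ± 0.30 (adjusted p = 1.11e-07) by edgeR. From d2 to d8 Acan fell by 2.63 ± 0.29 in WT (adjusted p = 1.12e-07), while K36M gave -0.06 ± 0.24 (adjusted p = 0.837), and the difference between genotypes grew by 2.57 ± 0.39 (adjusted p = 1.20e-05). In iPSCs Acan was at 9.87 and 12.4 CPM in WT and 9.55 and 9.34 CPM in K36M, with no difference called (-0.24 ± 0.20, adjusted p = 0.746), after rises from d8 of 3.98 ± 0.27 (adjusted p = 8.36e-12) in WT and 1.14 ± 0.22 (adjusted p = 0.000170) in K36M. WT d4 replicate 2 and WT d6 replicate 2 held the larger of the WT values, and without them the d4 and d6 differences were 3.94 (adjusted p = 2.99e-05) and 3.38 (adjusted p = 6.38e-06).

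Hapln1, the partner of aggrecan in the matrix, was scarce throughout, never above 1.29 CPM in any library. At d2 it was at 0.286 and 0.0772 CPM in WT and 1.29 and 0.597 CPM in K36M, with 9 and 39 counts, and passed the test (log2 fold change 2.39 ± 0.62, adjusted p = 0.00752 by edgeR). Without WT d2 replicate 2 that value was 1.73 (adjusted p = 0.133), without K36M d2 replicate 1 it was 1.71 (adjusted p = 0.214), and without WT d2 replicate 1 it was 3.55 (adjusted p = 0.0115). At d8 there were 2 counts in the WT pair and 10 in the K36M pair, a ratio of 7.39 (95% interval 1.57 to 69.3). The edgeR call there (log2 fold change 2.68 ± 1.09, adjusted p = 0.0383) was lost without WT d8 replicate 2, K36M d8 replicate 1 or K36M d8 replicate 2, where the values were 1.47 (adjusted p = 0.306), 2.37 (adjusted p = 0.169) and 2.93 (adjusted p = 0.0595), and rose to 5.50 (adjusted p = 0.0160) without WT d8 replicate 1. With 3 against 6 counts at d4 and 2 against 6 at d6, a difference was not detectable at this depth on those days.

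Comp was the member with the largest K36M difference on d4, d6 and d8. Both genotypes were low at d2, at 0.0408 and 0.193 CPM in WT and 0.276 and 0.108 CPM in K36M (0.71 ± 1.00, adjusted p = 0.714). WT then stayed at 0.0531 and 0.0952 CPM at d4, 0.138 and 0.144 at d6 and 0.0830 and 0.188 at d8, and K36M stood at 1.03 and 1.08, 4.44 and 1.69 and 4.03 and 4.31. The K36M level at d8 exceeded that of K36M MEFs at d0 (0.893 and 1.06 CPM), with no overlap of the libraries. The log2 fold changes of K36M over WT were 3.65 ± 0.75 (adjusted p = 0.000270) at d4, 4.38 ± 0.58 (adjusted p = 6.21e-07) at d6 and 4.79 ± 0.51 (adjusted p = 3.07e-08) at d8 (edgeR), from 4, 6 and 9 counts in the WT pairs and 44, 142 and 173 in the K36M pairs. The K36M d6 libraries differed from each other, and the d6 value was 3.53 (adjusted p = 6.86e-06) without the first and 4.92 (adjusted p = 1.10e-09) without the second. Without WT d8 replicate 2 the d8 value was 5.55 (adjusted p = 4.63e-06).

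Within K36M, Comp at d8 exceeded Comp at d2 by 4.35 ± 0.53 (adjusted p = 2.22e-07), or 5.19 (adjusted p = 1.30e-05) without K36M d2 replicate 1, and the same step in WT was 0.28 ± 0.97 (adjusted p = 0.838). Growth of the genotype difference from d2 to d8 was 4.07 ± 1.32 (adjusted p = 0.0180), but 2.64 (adjusted p = 0.496) without WT d2 replicate 2, which held 5 of the 6 WT counts at d2, and between 4.74 (adjusted p = 0.0140) and 4.91 (adjusted p = 0.0194) without WT d2 replicate 1, WT d8 replicate 2 or K36M d2 replicate 1. From d8 to iPSCs Comp in K36M fell by 3.34 ± 0.47 (adjusted p = 2.79e-06), and in iPSCs Comp was at 0.551 and 0.662 CPM in WT against 0.156 and 0.652 in K36M (-0.58 ± 0.63, adjusted p = 0.825). The K36M step was -2.66 (adjusted p = 0.000311) without K36M iPSC replicate 1 and -4.69 (adjusted p = 1.41e-05) without replicate 2. WT rose over the same step by 2.03 ± 0.70 (adjusted p = 0.0132), a call that was lost without WT d8 replicate 1, at 1.67 (adjusted p = 0.0694), or WT iPSC replicate 2, at 1.88 (adjusted p = 0.0750), and was 2.80 (adjusted p = 0.0286) without WT d8 replicate 2.

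Matn3 was higher in K36M from d4 to d8 and highest of all in iPSCs. From 0.368 and 0.463 CPM in WT and 0.414 and 0.542 CPM in K36M at d2 (0.18 ± 0.47, adjusted p = 0.872), it reached 0.371 and 0.127 CPM in WT against 0.984 and 0.423 in K36M at d4, 0.0459 and 0.144 CPM in WT against 0.889 and 0.924 in K36M at d6 and 0.332 and 0.242 CPM in WT against 1.20 and 0.919 in K36M at d8. The K36M libraries lay above the WT libraries on all 3 of these days, with log2 fold changes of 1.64 ± 0.50 (adjusted p = 0.00772), 3.20 ± 0.58 (adjusted p = 3.71e-05) and 1.91 ± 0.41 (adjusted p = 0.000378) (edgeR). The d4 call was lost without WT d4 replicate 2, at 0.90 (adjusted p = 0.213), and without K36M d4 replicate 1, at 0.92 (adjusted p = 0.246). The d6 value was 2.60 (adjusted p = 0.00228) without WT d6 replicate 1 and 4.15 (adjusted p = 0.000269) without WT d6 replicate 2. From d2 to d8 the genotype difference changed by 1.73 ± 0.64 (adjusted p = 0.0367), which did not pass when any of 5 libraries was left out, with values from 1.47 (adjusted p = 0.136) without WT d8 replicate 2 to 1.87 (adjusted p = 0.0553) without WT d2 replicate 1, and K36M d2 replicate 1, K36M d8 replicate 1 and WT d2 replicate 2 between them. In iPSCs Matn3 was at 9.62 and 7.62 CPM in WT and 7.11 and 7.18 CPM in K36M, above every MEF library, after rises from d8 of 4.92 ± 0.31 (adjusted p = 1.82e-12) in WT and 2.75 ± 0.27 (adjusted p = 1.31e-08) in K36M.

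The high Tnn level of K36M MEFs was not seen at d2. Tnn stood at 36.5 and 36.9 CPM in K36M at d0 and 1.61 and 1.14 CPM at d2, and in WT at 1.61 and 1.58 and then 0.490 and 0.502 CPM. The genotypes still differed at d2 (log2 fold change 1.48 ± 0.36, adjusted p = 0.00412 by edgeR), and without K36M d2 replicate 1 the value was 1.19 (adjusted p = 0.105). On later days Tnn was near the limit of detection, with 3 WT and 5 K36M counts at d4, 7 and 3 at d6 and 7 and 4 at d8, and no difference was called on those days. Leaving out WT d6 replicate 2 gave -2.03 (adjusted p = 0.0489) at d6. From d2 to d8 Tnn fell by 2.07 ± 0.55 in WT (adjusted p = 0.00349) and by 3.78 ± 0.53 in K36M (adjusted p = 1.62e-06).

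**Figure D2:**
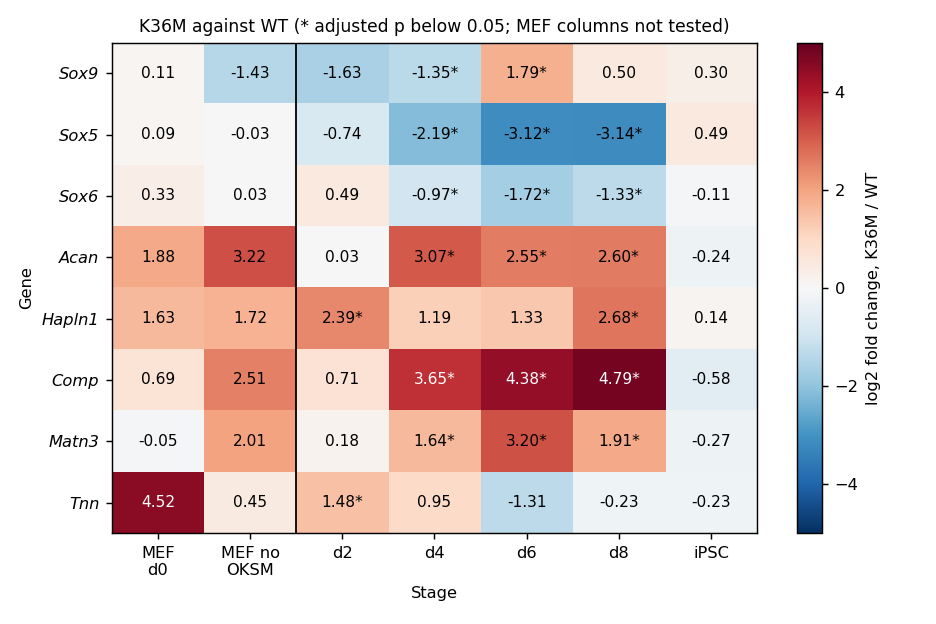
Log2 fold change of K36M over WT for each of the 8 genes (rows) at each stage (columns), with red for higher and blue for lower in K36M; an asterisk marks an edgeR adjusted p below 0.05, and the 2 MEF columns left of the line were not tested. Sox5 reads -3.14 and Comp 4.79 at d8, and no gene carries an asterisk in iPSCs.

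Counted over the members, edgeR called 2 of 8 higher in K36M and 0 lower at d2, where it called 9.74% and 10.4% of all tested genes; at an unadjusted p under 0.05 there were 4 (Sox9 and Sox5 lower beside them), and DESeq2 called the same number as edgeR. The edgeR count was 0 without K36M d2 replicate 1 and 1 without WT d2 replicate 2. At d4 there were 3 higher (Acan, Comp, Matn3) and 3 lower (Sox9, Sox5, Sox6) of 8, where the table as a whole had 27.1% and 25.8%. At d6 there were 4 higher (Acan, Sox9, Comp, Matn3) and 2 lower (Sox5, Sox6) against 37.3% and 33.7% of all genes, and at d8 again 4 higher (Acan, Comp, Matn3, Hapln1) and 2 lower (Sox5, Sox6) against 31.6% and 29%. The 6 calls at d6 remained without K36M d6 replicate 1 and without replicate 2, with Acan at 2.27 (adjusted p = 6.18e-05) and 2.79 (adjusted p = 1.34e-06) and Sox9 at 1.37 (adjusted p = 0.00514) and 2.13 (adjusted p = 1.54e-05). Since most tested genes were called at d4, d6 and d8, a count of 6 in 8 is not read as particular to these genes. In iPSCs edgeR called 0 of 8, none had an unadjusted p under 0.05, DESeq2 called 0 as well, and 0.756% and 0.49% of all genes were called.

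The median log2 fold change of the 8 genes on d2, d4, d6 and d8 was 0.34, 1.07, 1.56 and 1.20, with 0.00, 0.02, 0.08 and 0.04 over all tested genes. The change of the genotype difference from d2 to d8 was called higher for 4 (Acan, Sox9, Comp, Matn3) and lower for 2 (Sox5, Sox6) of 8, with 15.9% and 21.2% of all genes. Of these, the Sox5 value was -2.02 (adjusted p = 0.0659) without K36M d8 replicate 2.

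Between days within a genotype, WT at d8 against d2 had 2 members higher (Sox9, Sox6) and 3 lower (Acan, Sox5, Tnn), beside 25.9% and 22% of all genes. Sox9 rose by 1.14 ± 0.35 (adjusted p = 0.00943) there, and by 0.97 (adjusted p = 0.0924) without WT d2 replicate 2, while Sox5 changed by -0.88 ± 0.30 (adjusted p = 0.0176), and by -0.72 (adjusted p = 0.138) without WT d2 replicate 1 and -0.73 (adjusted p = 0.106) without WT d8 replicate 1. K36M at d8 against d2 had 3 higher (Sox9, Comp, Matn3) and 3 lower (Sox5, Hapln1, Tnn), beside 33.1% and 29.3%. Sox9 in K36M rose by 3.28 ± 0.47 (adjusted p = 2.41e-06) and Sox5 changed by -3.27 ± 0.57 (adjusted p = 2.98e-05). The Matn3 and Hapln1 calls, 1.15 ± 0.41 (adjusted p = 0.0179) and -1.97 ± 0.62 (adjusted p = 0.00810), were lost in turn without K36M d2 replicate 1, at 0.96 (adjusted p = 0.129) and -1.29 (adjusted p = 0.187), Matn3 also without K36M d8 replicate 1, at 0.95 (adjusted p = 0.123), and Hapln1 also without K36M d8 replicate 2, at -1.72 (adjusted p = 0.0687).

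From d8 to iPSCs, WT had 3 members higher (Acan, Comp, Matn3) and 1 lower (Sox6), with 35.8% and 34.2% of all genes. Sox6 changed by -3.49 ± 0.25 (adjusted p = 2.19e-11) in that step. K36M had 3 higher (Acan, Sox5, Matn3) and 2 lower (Sox6, Comp), with 27.1% and 24.5%. Sox5 returned by 3.72 ± 0.54 (adjusted p = 4.13e-06) and Sox6 changed by -2.28 ± 0.30 (adjusted p = 9.53e-07). In the iPSCs Sox9 was at 0.551 and 0.911 CPM in WT and 0.882 and 0.954 CPM in K36M and Sox5 at 0.651 and 0.787 CPM in WT against 0.986 and 1.05 in K36M, and the 8 log2 fold changes lay between -0.58 and 0.49, with standard errors up to 2.01.

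Ordered by mean level over the 14 groups, Acan ran from K36M d0 (25.6 CPM) through WT iPSC, K36M noOKSM and K36M iPSC to WT d4 (0.270 CPM). K36M noOKSM overlapped the iPSCs of both genotypes and these did not overlap each other. Tnn ran from K36M d0 to K36M d6, with WT d0 and K36M d2 next after the first and overlapping. Sox6 had the reverse kind of order, with WT d8, WT d6 and WT d4 on top, each apart from the next, and the MEFs without OKSM lowest. Sox9 was highest in the 4 MEF groups, first in WT noOKSM, and lowest in K36M d2. Comp was highest in K36M d8, followed by K36M noOKSM and K36M d6, which overlapped, and Matn3 in WT iPSC, K36M iPSC and K36M noOKSM, each apart from the next. Sox5 was lowest in K36M d8, d6 and d4, and Hapln1 highest in K36M d2 and K36M d0, which overlapped. Of the 13 neighbouring pairs in each order, the libraries of the pair overlapped in 7 for Acan, 7 for Sox9, 5 for Sox6, 8 for Matn3, 7 for Tnn, 10 for Comp, 11 for Sox5 and 12 for Hapln1.

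Per length, as mean CPM per kilobase of exon, the K36M MEFs at d0 held 6.30 of Tnn, 3.48 of Acan and 2.82 of Sox9, and WT MEFs 0.274, 0.943 and 2.62. On this scale Sox9 was the highest of the 8 in WT MEFs, and Tnn in K36M MEFs. At d8 Comp led in K36M, at 1.72, with Acan at 0.583, and Sox6 led in WT, at 0.815. In iPSCs Matn3 led in both genotypes, at 2.86 in WT and 2.37 in K36M.

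The levels of the members varied together only in part. Over the 14 group means of log2 CPM, which share libraries' stage and depth, Pearson's r was 0.81 for Acan with Matn3 and 0.71 for Hapln1 with Tnn, −0.77 for Sox6 with Matn3 and −0.69 for Sox5 with Comp, and 0.35 for Acan with Sox9. The 2 tested genes closest to each member by the same measure were Rnf144a (0.91) and Fbln1 (0.91) for Acan, Sema7a (0.97) and Tmem63a (0.97) for Sox9, Slc25a12 (0.95) and Gem (0.93) for Sox5, Slc2a4rg-ps (0.90) and Jrk (0.89) for Sox6. For the other matrix genes they were H2-DMb1 (0.95) and Irs3 (0.94) for Comp, Gpt2 (0.98) and Kcnh2 (0.95) for Matn3, Il2rg (0.88) and Rab39b (0.83) for Hapln1, and Dlx6 (0.92) and Olfm3 (0.91) for Tnn.

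Other genes of cartilage matrix were read from a list of 23 found in the table, 16 of them with enough counts to test. In MEFs at d0 the K36M libraries lay above the WT libraries for 7 and below for 2 of the 16, beside 29.5% and 30.6% of all tested genes. In MEFs without OKSM these counts were 15 and 0, beside 33.5% and 33.2%, with a median log2 fold change of 2.23 against 0.01 over all genes. Col2a1 was at 123 and 124 CPM in the WT pair without OKSM and 252 and 271 in the K36M pair, and Col9a1, a collagen that coats the type II fibril, had a mean of 0.0349 CPM in WT (2 counts) and 6.83 CPM in K36M (341 counts). During reprogramming the list split. Col2a1 was lower in K36M on each day, with log2 fold changes of -1.65, -1.61, -1.91 and -1.39 from the first day to the last (edgeR adjusted p 4.47e-07, 1.73e-07, 1.72e-08 and 2.15e-06), opposite to Acan, Comp and Matn3 on d4 to d8. Col10a1, the collagen of hypertrophic cartilage, was lower at d4 (-2.94), d6 (-5.28) and d8 (-4.52). Matn1, matrilin 1, a relative of Matn3, was higher on d4, d6 and d8, by 4.71, 4.46 and 4.58. Hapln3, a relative of Hapln1 found in many tissues, was higher by 2.92 at d2 and 3.09 at d4. Ucma, a small secreted protein of cartilage, had 0 counts in WT and 152 in K36M at d6, and 2 and 85 at d8.

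Over the matrix list edgeR called 7 higher and 2 lower of 16 at d2, then 6 and 3, 8 and 3, and 8 and 4 on the following days, with medians of 0.86, 1.16, 1.62 and 1.30. Of all tested genes 9.74% and 10.4% were called higher and lower at d2, 27.1% and 25.8% at d4, 37.3% and 33.7% at d6, and 31.6% and 29% on the last day. At d2 the largest changes were in Col9a1 (4.58, adjusted p = 0.0499, from 0 and 5 counts, so the fitted size is no bound), Hapln3, Col11a2 (2.72) and Col9a2 (2.69). In iPSCs 1 of 16 was called, Col10a1 (1.77, adjusted p = 0.0170 by edgeR), beside 0.756% of all tested genes called higher and 0.49% lower.

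**Figure D3:**
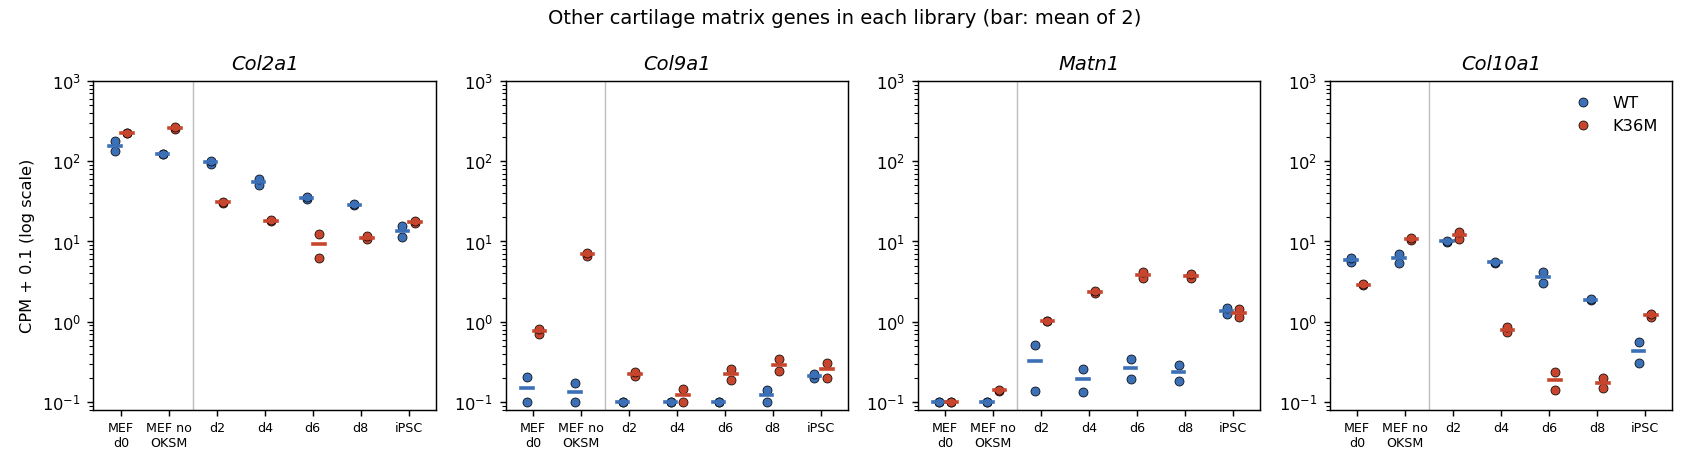
Level of Col2a1, Col9a1, Matn1 and Col10a1 in every library, as CPM plus 0.1 on a log scale, by stage, with WT in blue, K36M in red and a bar at the mean of 2. K36M lies below WT for Col2a1 from d2 to d8 and above WT for Matn1 on the same days, while Col9a1 is highest in the K36M MEFs, with 6.83 CPM without OKSM.

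Regulators and signals of cartilage other than the SOX members gave a list of 20 found and 19 tested. K36M was higher for 4 and lower for 4 at d2, and for 3 and 9 at d4, 2 and 13 at d6 and 4 and 8 at d8, with medians of -0.08, -0.62, -1.59 and -0.77. The shares of all tested genes called on these days are those given for the matrix list, and reached 37.3% and 33.7% at d6. Among those called lower were Foxc1, a forkhead factor of skeletal mesenchyme (-4.32 at d6 and -4.93 at d8), Pax1, a factor of the developing vertebral column (-3.98 and -5.33), and Pthlh, the signal that delays hypertrophy (-3.21 and -3.36). Barx2, a homeobox factor, was higher on d4, d6 and d8, by 4.12, 7.22 and 4.42, and Gli1, a target of hedgehog signalling, by 2.37 at d2 and 3.90 at d4. Gdf5, the joint-forming growth factor, was higher at d2 (1.94), and its genotype difference then changed by -4.16 to d8. In MEFs, K36M libraries lay above WT for 8 and below for 3 at d0, and for 11 and 4 without OKSM, beside 29.5% and 30.6% and then 33.5% and 33.2% of all tested genes.

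**Figure D4:**
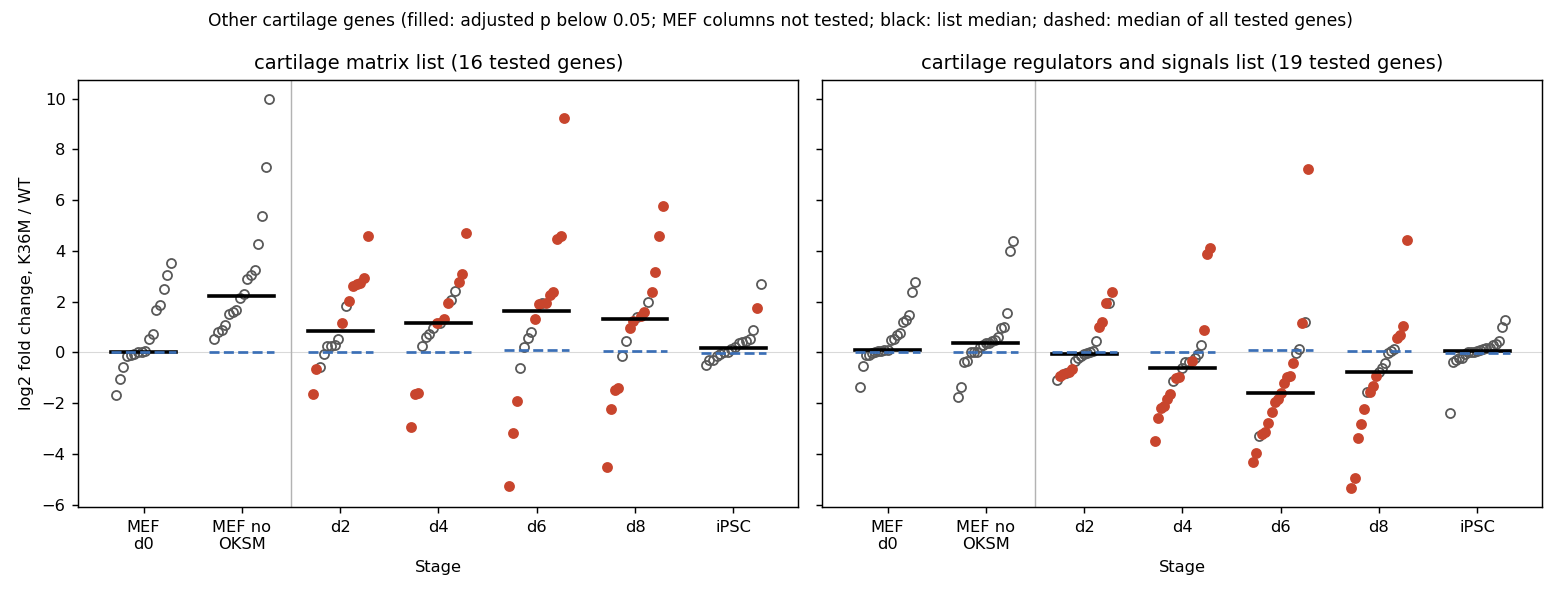
Log2 fold change of K36M over WT for the tested genes of the cartilage matrix list (left) and of the regulators and signals list (right), by stage. Filled circles have an edgeR adjusted p below 0.05, a black bar is the list median and a dashed line the median of all tested genes; the regulators sit lower than all genes at d6, with a median of -1.59, and the matrix genes higher, with 1.62.

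Markers of other cell types moved with the genotypes too, and their part in these results was not tested. The osteoblast list (13 found) summed to 1256 to 1420 CPM in WT without OKSM and 2322 to 2508 in K36M, mostly Postn and Spp1, and to 2337 to 2360 and 2457 to 2503 at d0, while the defining Bglap and Mepe were at 0 in the MEF groups and Ibsp at most 0.0792 CPM. Tnn, a bone-precursor gene, and Dlx6, the gene with the nearest pattern, were both highest in K36M d0; Dlx6 was at 0.105 CPM in WT and 1.23 in K36M. Tendon, which also makes Comp, was followed by 6 markers, led in the MEFs by Tnmd, Egr1 and Scx. They summed to 66.4 to 72.6 CPM in WT and 174 to 192 in K36M without OKSM. At d0 the sums were 120 to 127 and 117.5 to 117.6, and at d8 20.9 to 22.3 and 12.4 to 12.9. The d8 sums were mostly Egr1 (means of 14.2 CPM in WT and 9.42 in K36M), with Tnmd at 0.0622 and 0. Macrophage markers (5 found, led by Lyz2) summed to 39.9 to 43.0 in WT d0 and 12.3 to 12.4 in K36M d0. Endothelial markers (5 found) summed to 6.04 to 7.46 and 20.2 to 24.2 without OKSM. Most of this was Emcn, with means of 4.33 CPM in WT and 18.7 in K36M. Kdr went the other way, at 1.80 and 0.729 CPM, and was the only marker of this list to do so. Muscle markers (12 found) summed to 445 to 495 in WT d0 and 280.3 to 293 in K36M d0, and to 544 to 552 and 573 to 608 without OKSM. Their members went opposite ways. Without OKSM the mean of Des was 55.3 CPM in WT and 217 in K36M, and that of Actc1 0.403 and 3.76. Acta1 there was at 492 and 369. At d0, where Tnn and Acan were higher in K36M, Des was at 89.2 and 42.1 and Acta1 at 379.6 and 239. Myh3 was at 0.129 and 1.93, Actc1 at 0.397 and 1.96, and Myh8 at 0.0255 and 0.387. The defining Myod1 and Myog were at 0.0268 and 0.0268 in WT and 0.367 and 0.497 in K36M.

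The fibroblast list summed lower in K36M on each day from d2 to d8. At d2 its sum was 8535 to 8626 CPM in WT and 5695 to 5794 in K36M. Without OKSM it was 39042 to 43343 and 26913 to 33103. At d8 the sum was 6624 to 6998 CPM in WT and 1197 to 1208 in K36M. There 10 of 12 markers were called lower, beside 29% of all tested genes. The pluripotent list (10 found) summed to 1094 to 1107 in WT d8 and 3110 to 3123 in K36M d8, with 9 of 10 called higher, beside 31.6% of all tested genes. Neural crest and Schwann cell markers (9 found) summed to 57.8 to 58.9 and 163 to 167, mostly Erbb3 and Ngfr, with the defining Sox10 at 0.0830 and 0.625 CPM. In K36M d8 Acan, Comp and Matn3 were higher than in WT and 10 fibroblast markers were lower. A link between these differences was not tested.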

How the data were processed

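Poly(A) RNA from 28 mouse libraries, 2 in each of 14 groups, was measured. What the authors deposited is a single table of unnormalized read counts, whole numbers for each gene. The submitters' processing notes name the build mm9 and the tools STAR (2.5.0), HTSeq (0.11.2) and edgeR; the strand setting, the annotation and the treatment of multiply mapping reads are not stated in the sources used. Columns were matched to samples by name, with 0 unused.

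Total counts per library were 17507521 to 35622279. The table of 37620 genes was analysed with edgeR 4.0.16 under R 4.3.3, with TMM scaling. A filter on low counts by filterByExpr (10 per library, 15 in total) left 16932 genes to test. Quasi-likelihood models with robust fitting over all 14 groups had 14 residual degrees of freedom. P-values were adjusted by Benjamini-Hochberg over all tested genes, with a threshold of 0.05. Errors after ± are approximate standard errors: the absolute log2 fold change divided by the square root of F from the quasi-likelihood test. They are rough where counts are few, and those of the MEF comparisons come from the same fit. The 95% intervals of count ratios are exact binomial intervals that cover counting error only. The same procedure was tested on simulated data. Symbols with 2 records (Runx2, Zbtb20) were read from the record that has counts. Of the gene IDs, 37205 were found in GENCODE vM1.

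The members and the gene lists were chosen with earlier results of these data known. Named genes are the 8 members, per comparison up to 4 members of each cartilage list that passed with the largest changes, Col2a1, up to 3 members of each other list with the highest CPM in MEFs, and the 2 genes closest to each member in pattern. Some list genes printed to set days side by side, the list genes at 0 and the defining markers of other cell types were named outside this rule, after their values were seen. Alternatives were DESeq2 1.42.0, its size factors in the edgeR fit, no filter on low counts, no robust fitting, only the groups compared, a replicate block and each library left out. Replicate numbers are shared between groups, but the labels do not say that they mark a shared culture.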

Additional observations from a re-analysis of the deposited data

Results flagged for a closer look

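The K36M difference changed between d2 and d8 for 6 of the 8 genes, by the edgeR interaction test that was run on the difference itself. Of all tested genes, 15.9% were called higher and 21.2% lower in that test. On the log2 scale the change was 2.57 for Acan (adjusted p = 1.20e-05), 2.13 for Sox9 (0.0124), 4.07 for Comp (0.0180) and 1.73 for Matn3 (0.0367), all toward K36M. It was −2.40 for Sox5 (0.00769) and −1.82 for Sox6 (5.92e-05), toward WT. Interaction calls of Sox9, Sox5, Comp and Matn3 were lost when single libraries were left out, as given beside them above, and those of Acan and Sox6 were kept under each library left out. Tnn was flagged because the K36M libraries all lay above the WT libraries at d0, with a log2 fold change of 4.52, and all below them at d8, with −0.23; this difference between stages was not tested, and the d8 value rests on 7 WT and 4 K36M counts.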

How the results depend on the processing

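Without 1 library, the number of the 8 genes called at d2 ran from 0 to 2. It ran from 5 to 5 at d4, 6 to 7 at d6, 5 to 6 at d8 and 0 to 0 in iPSCs, and from 4 to 6 for the change from d2 to d8. Size factors of DESeq2, no filter on low counts and no robust fitting left every one of the 10 counts as it was. DESeq2 itself called 5 at d4 and at d8 and 4 for WT d8 against d2: it lost Sox9 at d4 (adjusted p = 0.0514), Hapln1 at d8 (adjusted p = 0.05003) and Sox5 in WT (adjusted p = 0.0763). With only the groups compared in the fit, 4 were called at d4 and 5 at d8, where 4 and 6 of the 8 genes passed the filter on low counts. No difference that passed the test, in the first fit or in the alternative, changed its sign. Signs of values that did not pass or were not tested were not followed. The numbers shared by replicates did not pair the samples: the deviations of same-numbered libraries correlated between −0.06 and 0.13 over the 7 stages, and with a replicate block the counts were again 2 at d2, 6 at d4, d6 and d8, and 0 in iPSCs. Over the whole table, only the groups compared gave 6818 genes at d2 and 7731 at d6, against 3405 and 12013. The 211 genes called in iPSCs became 318 by DESeq2, 447 without the filter and 1397 with only the groups compared. That number moved in both directions, depending on which iPSC library was left out. Without 1 library the d2 count was 2097 to 2253. Counting limits Hapln1 from d4 on, Tnn from d4 on, Comp in WT and Sox5 in K36M, where a pair of libraries held few reads. Leaving out WT replicate 1 or 2 without OKSM moved the described Comp difference to 3.29 or 2.05.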
